A study of Mus musculus with 20 samples.

Results

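Chemokines are small secreted proteins that guide white blood cells along concentration gradients, and each acts through one or more G protein-coupled receptors on the cell that responds. Their names follow the spacing of conserved cysteines, so that CC ligands (Ccl) mostly attract monocytes, eosinophils and T cells, while CXC ligands (Cxcl) include the neutrophil attractants and the interferon-induced ligands of T cells. In joints they are known for drawing monocytes and neutrophils into inflamed synovium, and in bone marrow Cxcl12 retains blood-forming cells and neutrophils. The chemokine ligand genes were taken by name from the gene table, as every Ccl and Cxcl symbol with a number together with Cx3cl1, Xcl1, Pf4 and Ppbp, which gave 30 genes of 14793. The 30 genes made up all but 11 of a list of 41 mouse ligands sorted by receptor, and the 11 others (Ccl1, Ccl19, Ccl20, Ccl21b, Ccl21d, Ccl26, Ccl27b, Cxcl3, Cxcl11, Cxcl15 and Cxcl17) were not analysed here.

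Expression was measured by bulk RNA sequencing of 20 knee joints from male C57BL/6Nci mice, 5 in each of 4 groups. All followed surgical destabilization of the medial meniscus (DMM) at 12 weeks of age, a model of osteoarthritis. Control joints had only a needle inserted, without cells. The other joints were injected in weeks 3 and 5 after DMM with adipose-derived mesenchymal stromal cells, which were non-activated (MSC) or had been kept for 2 h with 10 µg/mL of pIC, a double-stranded RNA mimic that activates TLR3 (TLR3-MSC), or of cGAMP, which activates STING (STING-MSC). All injected cells came from 1 pool of donor mice of the same strain and age. The whole joint was taken en bloc with cartilage, synovium, capsule and adjacent bone, so injected and host cells cannot be told apart. Collection was placed 8 weeks after surgery in the methods and 24 h after injection in the results of the study, and the question was how the cells alter immune gene expression in the joint. Joints are numbered 1 to 5 within each group by the replicate number of the labels, and same-numbered joints of different groups are different mice.

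Values are normalized counts, in which the reads of each gene were divided by a size factor of the joint, and between 27955496 and 52529973 reads per joint lay on the genes of the table. Cartilage, bone, muscle, stromal and blood cell markers were all present, as an en bloc joint would hold. The neutrophil list stood highest of the blood cell lists, with a summed normalized count of 396035 to 707776 in control joints and 529618 to 965423 in the other 15. Keratinocyte markers were uneven, with a sum of 24846 in 1 TLR3-MSC joint and 8049 in 1 control joint against 139 to 1849 in the other 18. MSC 5 had 296 genes listed at 0, against 0 to 97 in the other joints, and STING-MSC 3 stood apart for several chemokine genes, so values without the joint are given beside the results that it moves most.

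The highest levels per length belonged to ligands that platelets, stroma and myeloid cells are known to make, and the neutrophil attractants Cxcl1 and Cxcl2 lay near the bottom. Divided by the length of the canonical transcript, the mean normalized count per kb over the 20 joints was 13212 for Ppbp, 5705 for Cxcl12, 4362 for Ccl6, 3846 for Pf4 and 1982 for Ccl21a. Next came Cxcl14 at 1242, Ccl9 at 945, Ccl8 at 456 and Ccl5 at 452. These 9 genes stood above the other 21, which ran from 203 for Ccl27a down to 11.9 for Cxcl1, 8.73 for Cxcl2 and 5.30 for Ccl28. The canonical transcript of Pf4, at 1493 bases, is longer than the whole deposited gene (chr5:90920294-90921243). Its level per kb is therefore understated, and its place among the highest 5 is uncertain. By count, Cxcl12 was above 99.4% of all genes in the table and Cxcl2 above 0.0203%.

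**Figure D1:**
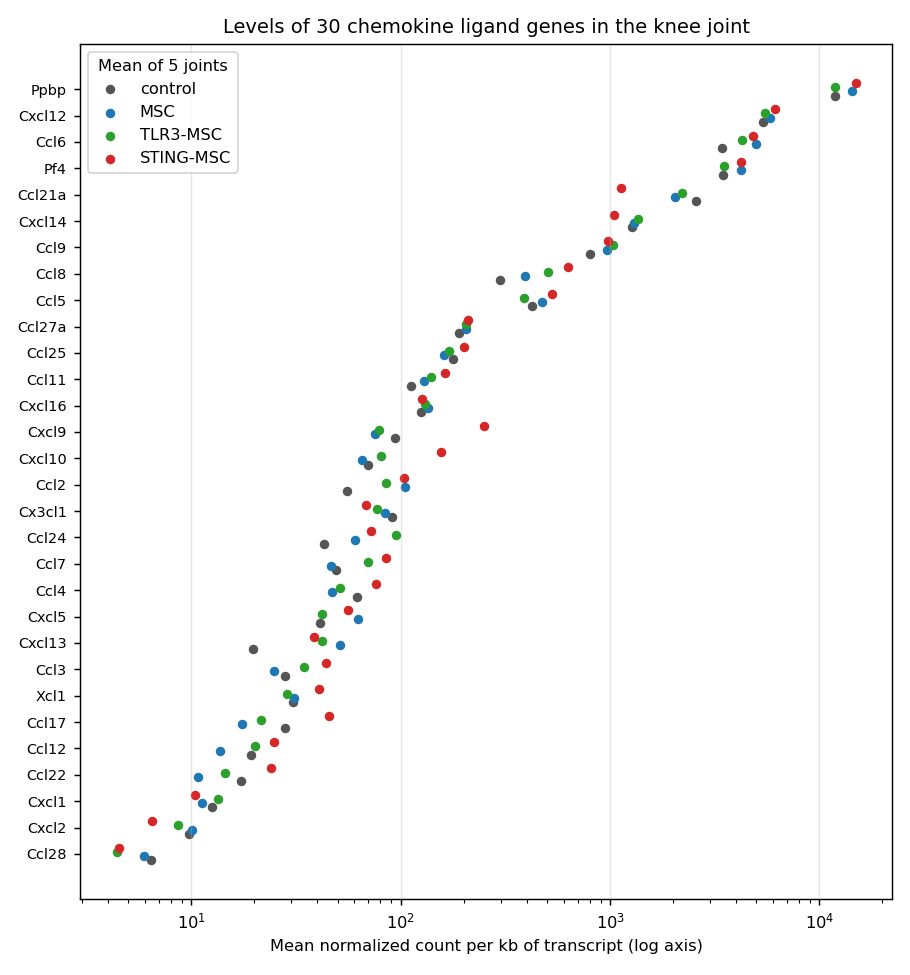
Levels of the 30 chemokine ligand genes, with the mean normalized count per kb of canonical transcript on a log axis and 1 point for the mean of 5 joints in each group. Genes are ordered by their mean over all 20 joints, from 13212 for Ppbp to 5.30 for Ccl28. The level of Pf4 is understated, since its canonical transcript is longer than the deposited gene. For most genes the 4 group means lie close together, and the STING-MSC means of Cxcl9 and Cxcl10 lie to the right, where 1 joint stands far above the others.

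Members lay in blocks on the chromosomes, with 11 on chromosome 11, 9 on chromosome 5, 4 on chromosome 8, 2 each on chromosomes 4 and 13, and 1 each on chromosomes 1 and 6 (GRCm39). On chromosome 11, Ccl2, Ccl7, Ccl11, Ccl12 and Ccl8 followed each other with gaps of 8257 to 38888 bases, and Ccl5, Ccl9, Ccl6, Ccl3 and Ccl4 formed a second block with gaps of 9244 to 54755 bases. On chromosome 5, Cxcl5, Ppbp, Pf4, Cxcl1 and Cxcl2 formed a block, and Cxcl9 and Cxcl10 lay 18557 bases apart in another. Some members overlap a gene of the table on the opposite strand (Cxcl10 with Art3, Ccl25 with Elavl1, Ccl27a with Il11ra1, and Cxcl16 with Med11 and Zmynd15), and whether the counting used strand was not stated, so their counts are uncertain. Ccl21a and Ccl27a also have near-identical copies in the mouse genome, and reads from these may be divided among them.

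Compared with control joints, the members with the smallest p had higher means, among them Cxcl13, Ccl6, Ccl9, Ccl24, Ccl8 and Cxcl5. None passed the false discovery rate (FDR). With limma on log2(normalized count + 1), and p adjusted over all 14793 genes by the Benjamini-Hochberg method, 0 of 30 members had an FDR of at most 0.05 in any of the 6 comparisons between groups, and edgeR on the recovered reads also called 0. DESeq2 called 0 of the 18 members for which it gave an FDR in MSC against control, which did not include Cxcl13, and 0 of 29 in each other comparison, where it gave none for Cxcl9. Across all genes, limma called 0.00676% at this FDR for MSC against control and 0% in the other 5 comparisons. DESeq2 called some genes outside the family in all 6 comparisons, and edgeR did for MSC against control and for TLR3-MSC against MSC. The absence of called members in these 2 tools therefore did not reflect an absence of called genes everywhere. At a nominal threshold, an unadjusted limma p of at most 0.05, 3 members were higher and 0 lower for MSC against control (Cxcl13, Ccl6 and Cxcl5), where 5.64% of all genes were called higher and 2.91% lower, 8.55% in all. For TLR3-MSC against control, 3 were higher and 0 lower (Ccl9, Cxcl13 and Ccl24), against 2.68% of all genes higher and 0.906% lower, 3.58% in all. For STING-MSC against control, again 3 were higher and 0 lower (Ccl6, Cxcl13 and Ccl8), against 6.54% of all genes higher and 5.69% lower, 12.2% in all. A count of 3 of 30 lies near the share of all genes called for MSC and STING-MSC and above it for TLR3-MSC. Whether the members differ from other genes was not tested. The 3 comparisons share the same control joints. Without control 1, Cxcl13 passed an FDR of 0.05 for MSC against control, and 5, 5 and 6 members met the nominal threshold after MSC, TLR3-MSC and STING-MSC. The shares of all genes also rose there, to 11.2%, 5.48% and 15.7%, and 26 genes passed the FDR for MSC.

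Over the whole family, more members had a mean above control than below it after STING-MSC, and the size of this depended on single joints. The log2 difference from control was above 0 for 22 of 30 members after STING-MSC, with a median of 0.29, while 51.7% of all genes were above 0 with a median of 0.0078. Without STING-MSC 3 it was above 0 for 18 members, with a median of 0.12, and without control 4 for 22, with a median of 0.18. After TLR3-MSC it was above 0 for 20 members with a median of 0.061, against 47.9% of all genes and a median of −0.0068. After MSC it was above 0 for 16 members with a median of 0.047, against 42.3% and −0.036, and 20 members were above 0 under quantile normalization. With each joint left out in turn, the median ranged from 0.025 to 0.15 after TLR3-MSC (lowest without control 2, highest without TLR3-MSC 3) and from −0.089 to 0.16 after MSC (lowest without MSC 2, highest without MSC 5). In no comparison did all 5 joints of one group lie above, or all below, all 5 of the other for any member. Of all genes, 0.737% were separated upwards and 0.372% downwards for MSC against control. For TLR3-MSC these shares were 0.575% and 0.25%, and for STING-MSC 0.933% and 1.24%. Between injected groups they ran from 0.23% to 1.12%. At such shares none of 30 is a likely outcome, so it does not set the members apart. In a test for any difference among the 4 groups 2 members met the nominal threshold, Cxcl13 and Ccl6, where 6.42% of all genes were called.

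**Figure D2:**
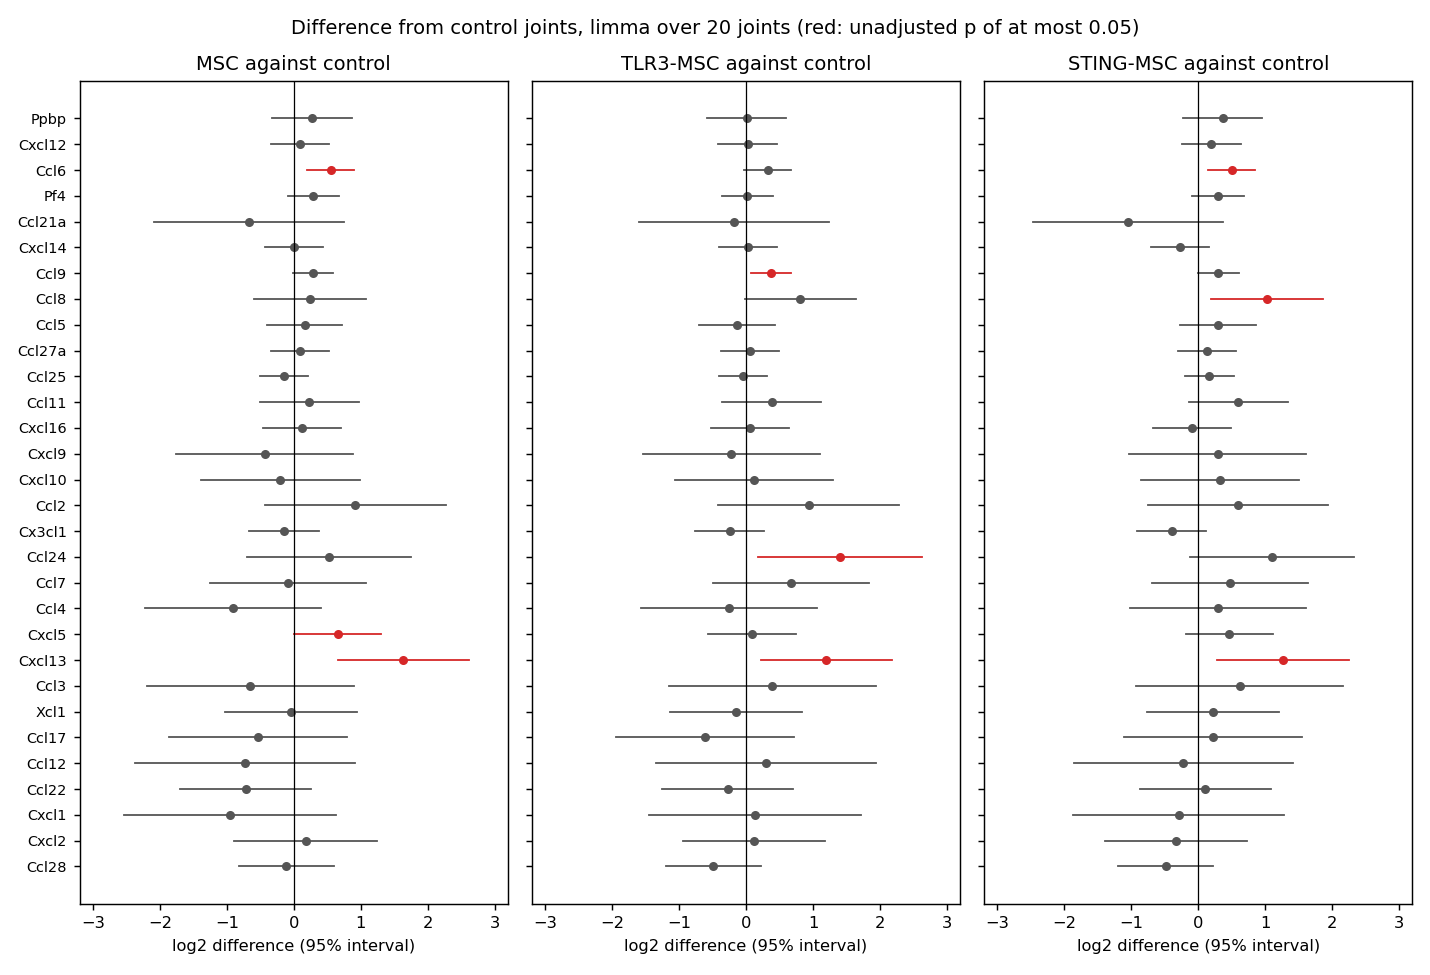
Difference from control joints for the 30 members, as the log2 difference of normalized counts on the horizontal axis with its 95% interval from limma, for MSC, TLR3-MSC and STING-MSC. Points in red have an unadjusted p of at most 0.05, the nominal threshold, which are 3 in each panel, all to the right of 0, and none has an FDR of at most 0.05.

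Cxcl13 and Cxcl12 are made by stromal cells. Cxcl13 (ENSMUSG00000023078, chr5:96104810-96108928) attracts B cells through CXCR5, and it alone of the members met the nominal threshold in all 3 comparisons with control. Its normalized counts were 59.3, 12.1, 7.54, 22.8 and 11.6 in control joints, 71.7, 82.5, 37.8, 35.4 and 67.2 after MSC, 30.3, 22.6, 109.9, 41.4 and 36.2 after TLR3-MSC, and 57.7, 41.6, 28.2, 38.7 and 55.6 after STING-MSC, with joints in numerical order here and throughout. Control 1 stood above the other 4 control joints and above every STING-MSC joint, while every treated joint but TLR3-MSC 2 lay above the other 4 controls. The log2 difference from control was 1.64 (standard error 0.47, 95% interval 0.65 to 2.62, unadjusted p = 0.00249, FDR = 0.302, exact permutation p = 0.0317) for MSC. In TLR3-MSC joints it was 1.20 (standard error 0.47, 95% interval 0.22 to 2.18, unadjusted p = 0.0192, FDR = 1, exact permutation p = 0.103), and in STING-MSC joints 1.27 (standard error 0.47, 95% interval 0.29 to 2.25, unadjusted p = 0.0141, FDR = 0.341, exact permutation p = 0.0635). The exact permutation test is two-sided over all splits of 5 joints against 5, and its smallest possible p is 0.00794. TLR3-MSC 3 was the highest of all joints, and without it the TLR3-MSC difference was 0.85 and no longer met the nominal threshold, as was also the case without control 3 and with only the 2 groups compared. The STING-MSC difference did not meet it in edgeR or DESeq2. The B cell list had 0 of 5 markers past the nominal threshold in these comparisons, with a sum of 7111 to 13175 in control joints and 6271 to 15594 in the others. In bulk tissue, fewer cells of a type and less RNA per cell cannot be told apart, which holds for every member.

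Cxcl12 (ENSMUSG00000061353, chr6:117145496-117158329), the CXCR4 ligand that holds blood-forming cells in the marrow, was the most abundant member by count and did not separate the groups. Its normalized counts were 35162, 30493, 26526, 21516 and 39302 in control joints, 38015, 26253, 40178, 40375 and 20515 after MSC, 39307, 30070, 21687, 35365 and 28756 after TLR3-MSC, and 28980, 30211, 35870, 35932 and 42291 after STING-MSC. Every group spanned both low and high joints. Differences from control on the log2 scale were 0.093 (95% interval −0.34 to 0.53) after MSC, 0.023 (95% interval −0.41 to 0.46) after TLR3-MSC and 0.20 (95% interval −0.24 to 0.63) after STING-MSC.

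The inflammatory and myeloid CC ligands Ccl3, Ccl4, Ccl5, Ccl6 and Ccl9 attract monocytes, macrophages and T cells, and Ccl6 and Ccl9 are made constitutively by myeloid cells in mice. Ccl6 (ENSMUSG00000018927, chr11:83478708-83483914) had normalized counts of 7101, 4663, 4126, 4056 and 4689 in control joints, 8339, 5916, 7365, 8193 and 5899.5 after MSC, 5168, 4988, 6231, 7845 and 6431 after TLR3-MSC, and 5811, 5529, 8207, 6800.4 and 8279.5 after STING-MSC. All 5 joints of each treated group lay above 4 of the 5 controls, and control 1 lay inside the range of each treated group. The log2 difference was 0.55 (standard error 0.17, 95% interval 0.20 to 0.90, unadjusted p = 0.00391, FDR = 0.303, exact permutation p = 0.0238) for MSC against control and 0.50 (standard error 0.17, 95% interval 0.15 to 0.85, unadjusted p = 0.00743, FDR = 0.315, exact permutation p = 0.0476) for STING-MSC. After TLR3-MSC it was 0.33 (95% interval −0.023 to 0.68). For MSC and for STING-MSC it met the nominal threshold when each of the 20 joints was left out in turn, and in edgeR, DESeq2 and the fit with a replicate block.

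Ccl9 (ENSMUSG00000019122, chr11:83463745-83469463) was also higher on average in each treated group than in control joints. Its normalized counts were 2759.7, 1909, 2394, 3056 and 1952 in control joints, 3443, 3261, 2926, 2382 and 2614 after MSC, 2719, 2535, 3372, 3017 and 3893 after TLR3-MSC, and 2919, 2594, 3524, 2797 and 2852 after STING-MSC. The groups overlapped throughout, and TLR3-MSC 5 was the highest joint. TLR3-MSC joints differed from control by 0.37 (standard error 0.14, 95% interval 0.07 to 0.67, unadjusted p = 0.0183, FDR = 1, exact permutation p = 0.0794) on the log2 scale. For MSC it was 0.29 (95% interval −0.013 to 0.59) and for STING-MSC 0.30 (95% interval −0.0013 to 0.60), so the 3 differences lay close together. Without TLR3-MSC 5 the TLR3-MSC difference was 0.29, and it no longer met the nominal threshold without that joint, control 2 or control 5.

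Neutrophil markers met the nominal threshold mainly after MSC and STING-MSC. Ccl6 met it in the same comparisons and Ccl9 only after TLR3-MSC, but both came close to it elsewhere. The unadjusted limma p was 0.0653 for Ccl6 after TLR3-MSC and 0.0596 for Ccl9 after MSC. Of 10 neutrophil markers, 7 met the nominal threshold upwards after MSC, 1 after TLR3-MSC and 8 after STING-MSC, compared with control. Of 10 macrophage and monocyte markers 2, 0 and 2 did. Over all genes, 5.64%, 2.68% and 6.54% were called higher in the same order. The summed macrophage and monocyte level was 108527 to 149483 in control joints, 137724 to 200682 after MSC, 135435 to 170247 after TLR3-MSC and 129799 to 197157 after STING-MSC. No marker of either list was at 0 in any joint. The part of these cells in the Ccl6 and Ccl9 differences was not tested.

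Ccl5 (ENSMUSG00000035042, chr11:83416604-83421345), which T cells, NK cells and platelets carry, had normalized counts of 257, 262, 239, 129 and 242 in control joints, 361, 207, 283, 236 and 176 after MSC, 269, 171, 126, 202 and 268 after TLR3-MSC, and 176, 273, 414, 207 and 339.6 after STING-MSC. Control 4 was low and STING-MSC 3 high, and the groups overlapped. Between STING-MSC and TLR3-MSC the log2 difference was 0.43 (standard error 0.27, 95% interval −0.14 to 1.00, unadjusted p = 0.128, FDR = 0.89, exact permutation p = 0.159). Without STING-MSC 3 it was 0.27. From control, with all joints, it was 0.29 (95% interval −0.27 to 0.86) after STING-MSC.

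Ccl4 (ENSMUSG00000018930, chr11:83553410-83555510), an inflammatory ligand of macrophages and T cells, had normalized counts of 69.9, 41.1, 39.0, 29.2 and 34.0 in control joints, 49.6, 40.4, 32.8, 37.1 and 1.02 after MSC, 53.1, 30.7, 21.4, 37.3 and 33.9 after TLR3-MSC, and 39.3, 53.8, 81.3, 52.5 and 35.5 after STING-MSC. MSC 5 had a single read, where 3 reads correspond to a normalized count of 3.05, and the other 19 joints lay between 21.4 and 81.3. STING-MSC joints differed from MSC joints by a log2 value of 1.21 (standard error 0.63, 95% interval −0.11 to 2.52, unadjusted p = 0.0698, FDR = 0.938, exact permutation p = 0.103), and without MSC 5 it was 0.34. Its neighbour Ccl3 ranged from 9.66 to 59.4 in 19 joints and was at 0 in MSC 5.

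**Figure D3:**
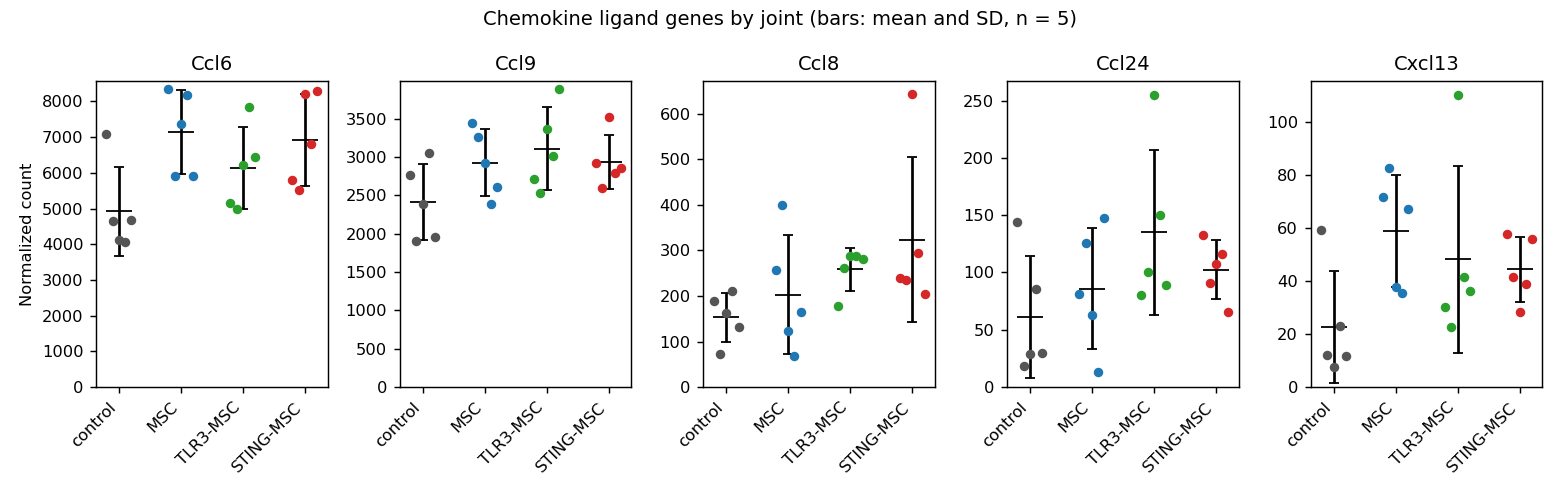
Normalized counts of Ccl6, Ccl9, Ccl8, Ccl24 and Cxcl13 on the vertical axis in each joint, 1 point per joint, with the mean and SD of 5 joints as bars. Control joints are among the lowest in each panel, beside MSC joints for Ccl8 and Ccl24, and single joints stand out, such as control 1 for Ccl6 and Cxcl13 and STING-MSC 3 for Ccl8.

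The CCR2 and CCR3 ligands draw monocytes and eosinophils from blood. Of these 6 members, 4, 6 and 5 were above control in log2 difference after MSC, TLR3-MSC and STING-MSC, and 0, 1 and 1 met the nominal threshold. Of all genes, 42.3%, 47.9% and 51.7% were above control, and 5.64%, 2.68% and 6.54% were called higher. Ccl8 (ENSMUSG00000009185, chr11:82006011-82007626), a monocyte chemoattractant protein, had normalized counts of 188, 73.7, 162, 212 and 132 in control joints, 257, 399.9, 122, 68.4 and 166 after MSC, 177, 261, 288, 288 and 280.3 after TLR3-MSC, and 240.0, 236, 643, 295 and 205 after STING-MSC. STING-MSC 3 stood far above, and 4 of 5 STING-MSC joints and 4 of 5 TLR3-MSC joints lay above all controls. The log2 difference from control was 1.02 (standard error 0.40, 95% interval 0.18 to 1.86, unadjusted p = 0.0193, FDR = 0.364, exact permutation p = 0.0159) for STING-MSC. Without STING-MSC 3 it was 0.74 and no longer met the nominal threshold, and the same held without control 2. For TLR3-MSC it was 0.81 (standard error 0.40, 95% interval −0.022 to 1.65, unadjusted p = 0.0557, FDR = 1, exact permutation p = 0.0238), and for MSC 0.24 (95% interval −0.60 to 1.07).

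Ccl24 (ENSMUSG00000004814, chr5:135598791-135601904), an eosinophil attractant also called eotaxin-2, had normalized counts of 144, 18.1, 28.9, 85.8 and 29.9 in control joints, 81.1, 125, 62.7, 13.2 and 148 after MSC, 80.1, 100.3, 255, 150.2 and 89.3 after TLR3-MSC, and 132, 90.5, 107, 116 and 65.2 after STING-MSC. Controls were split, with 3 joints under 30 and 2 above 85, and MSC 4 was lower than any control. Relative to control, the log2 difference was 1.40 (standard error 0.58, 95% interval 0.18 to 2.62, unadjusted p = 0.0269, FDR = 1, exact permutation p = 0.0714) for TLR3-MSC. For STING-MSC it was 1.11 (95% interval −0.12 to 2.33) and for MSC 0.53 (95% interval −0.69 to 1.75). The TLR3-MSC difference did not meet the nominal threshold in edgeR or when any of control 2, 3 or 5 or TLR3-MSC 3 or 4 was left out.

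Ccl2 (ENSMUSG00000035385, chr11:81926397-81928280), the main ligand of the monocyte receptor CCR2, had normalized counts of 31.8, 15.7, 54.0, 103 and 19.7 in control joints, 27.5, 56.4, 120.4, 180.5 and 42.8 after MSC, 75.9, 70.3, 71.1, 52.8 and 76.9 after TLR3-MSC, and 35.4, 83.2, 242, 50.0 and 12.5 after STING-MSC. The TLR3-MSC joints lay close together, while the other groups spread widely, from 12.5 to 242 after STING-MSC. Log2 differences from control were 0.92 (95% interval −0.43 to 2.27) after MSC, 0.93 (95% interval −0.42 to 2.28) after TLR3-MSC and 0.59 (95% interval −0.76 to 1.94) after STING-MSC. Without STING-MSC 3 the last was 0.060. The other ligands of the group, Ccl7, Ccl11 and Ccl12, ranged from 10.6 to 178, from 60.4 to 267 and from 0 to 69.9 over the 20 joints, and none met the nominal threshold in any comparison. For Ccl11, an eosinophil attractant called eotaxin, the STING-MSC difference was 0.60 (95% interval −0.14 to 1.33).

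The CXCR2 ligands attract neutrophils, and Cxcl5, Cxcl1 and Cxcl2 were low in these joints although neutrophil transcripts were abundant. Cxcl5 (ENSMUSG00000029371, chr5:90907219-90909484) had normalized counts of 75.2, 80.9, 61.6, 26.5 and 80.3 in control joints, 83.8, 83.3, 122, 131 and 72.3 after MSC, 89.3, 47.7, 45.6, 76.6 and 73.5 after TLR3-MSC, and 48.5, 73.4, 88.6, 116 and 112 after STING-MSC. Control 4 stood below the rest, and 4 of 5 MSC joints lay above all controls. The log2 difference was 0.66 (standard error 0.31, 95% interval 0.0068 to 1.31, unadjusted p = 0.0479, FDR = 0.577, exact permutation p = 0.0714) for MSC against control. Without control 4 it was 0.37, and it did not meet the nominal threshold there, in edgeR, with the replicate block, with only the 2 groups compared, or with any of several other joints of the 4 groups left out. Against MSC, the TLR3-MSC difference was −0.57 (standard error 0.31, 95% interval −1.22 to 0.082, unadjusted p = 0.0828, FDR = 0.978, exact permutation p = 0.0794).

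Cxcl1 (ENSMUSG00000029380, chr5:91039100-91040975) had normalized counts of 8.47, 14.5, 21.4, 10.96 and 4.76 in control joints, 6.70, 23.6, 22.9, 0.824 and 0 after MSC, 14.3, 17.8, 8.04, 6.21 and 18.1 after TLR3-MSC, and 3.93, 4.89, 18.8, 13.7 and 8.63 after STING-MSC. Cxcl2 (ENSMUSG00000058427, chr5:91051730-91053798) had normalized counts of 11.6, 1.21, 16.3, 14.6 and 10.2 in control joints, 12.7, 9.26, 5.97, 5.77 and 22.4 after MSC, 10.1, 9.70, 9.38, 8.29 and 10.2 after TLR3-MSC, and 7.87, 9.79, 7.30, 2.50 and 8.63 after STING-MSC. Both lay near the level of 3 reads in some joints, and Cxcl1 was at 0 in MSC 5 and at 1 read in MSC 4. Fold changes of such low counts are understated by the added 1 and are not resolved at this depth. The log2 difference of STING-MSC from control was −0.29 (95% interval −1.87 to 1.29) for Cxcl1 and −0.33 (95% interval −1.39 to 0.73) for Cxcl2.

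Cxcl1 and Cxcl2 are neighbours known as targets of NF-κB, and their promoters are shown with the letters GGGNNTTTCC (N is any base) in capitals on either strand. The 250 bases before the annotated start were read from RefSeq on GRCm38.p6, 5′ to 3′ on the plus strand of both genes, at chr5:90890995-90891244 for Cxcl1 and chr5:90903649-90903898 for Cxcl2.
Cxcl1: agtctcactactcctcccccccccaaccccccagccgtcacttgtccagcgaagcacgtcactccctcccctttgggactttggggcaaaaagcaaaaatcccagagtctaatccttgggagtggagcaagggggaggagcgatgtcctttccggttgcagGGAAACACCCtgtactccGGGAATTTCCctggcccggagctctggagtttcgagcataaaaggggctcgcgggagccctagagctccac
Cxcl2: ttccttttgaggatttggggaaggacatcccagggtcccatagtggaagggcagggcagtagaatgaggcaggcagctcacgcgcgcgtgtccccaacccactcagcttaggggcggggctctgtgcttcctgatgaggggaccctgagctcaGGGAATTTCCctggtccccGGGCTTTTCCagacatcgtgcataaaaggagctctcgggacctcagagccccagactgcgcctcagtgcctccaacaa
Each holds 2 matches, at −89 to −80 and −71 to −62 before the start of Cxcl1 and at −97 to −88 and −78 to −69 before that of Cxcl2. Of 32851 promoter windows of this length, 1.41% hold the motif, and among the 22 members with a RefSeq promoter Ccl9 is the other with a match. A match is a description of letters and was not linked to any level.

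Pf4 and Ppbp encode the chemokines of platelet granules and are transcribed in megakaryocytes of the marrow. Pf4 (ENSMUSG00000029373, chr5:90920294-90921243) had normalized counts of 7018, 5061, 4405, 3733 and 5644 in control joints, 7350.5, 5085, 7296, 7199 and 4633 after MSC, 6305, 4116, 4246, 6311 and 5073 after TLR3-MSC, and 5120.4, 5601, 6027, 6640.5 and 7976 after STING-MSC. Ppbp (ENSMUSG00000029372, chr5:90916377-90917923) had normalized counts of 19591, 13976, 10521, 7337 and 16297 in control joints, 19679, 9958, 20283, 19779 and 11249 after MSC, 19155, 12052, 8156, 16442 and 11446 after TLR3-MSC, and 13579, 12842, 16638, 18094 and 23369 after STING-MSC. Control 4 was lowest and STING-MSC 5 highest for both genes, and the groups overlapped. After MSC and STING-MSC, the log2 difference from control was 0.29 (95% interval −0.09 to 0.68) and 0.29 (95% interval −0.088 to 0.68) for Pf4. For Ppbp it was 0.27 (95% interval −0.32 to 0.87) and 0.37 (95% interval −0.23 to 0.96), and after TLR3-MSC the differences were 0.02 and 0.0082. The summed level of 7 other megakaryocyte and platelet markers ran from 15388 in control 4 to 42634 in STING-MSC 5, the same 2 joints, and 0 of these 7 met the nominal threshold in the comparisons with control.

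Cxcl9 and Cxcl10 are induced by interferon and attract T and NK cells through CXCR3. Cxcl9 (ENSMUSG00000029417, chr5:92469206-92475939) had normalized counts of 282, 275, 366, 138 and 296 in control joints, 376, 194, 234, 223 and 67.2 after MSC, 271, 213, 149, 225 and 279 after TLR3-MSC, and 101, 254, 2853, 224 and 193 after STING-MSC. Cxcl10 (ENSMUSG00000034855, chr5:92494497-92496749) had normalized counts of 79.4, 80.9, 116, 57.5 and 52.4 in control joints, 125, 58.1, 78.6, 73.4 and 26.5 after MSC, 94.4, 71.2, 46.9, 67.3 and 162 after TLR3-MSC, and 44.6, 67.3, 619, 66.2 and 56.6 after STING-MSC. STING-MSC 3 stood far above all other joints for both genes, and the other 4 STING-MSC joints lay within the range of the control and MSC joints. The log2 difference of STING-MSC from MSC was 0.72 (standard error 0.63, 95% interval −0.60 to 2.05, unadjusted p = 0.266, FDR = 0.938, exact permutation p = 0.548) for Cxcl9 and 0.53 (standard error 0.56, 95% interval −0.66 to 1.71, unadjusted p = 0.363, FDR = 0.943, exact permutation p = 0.651) for Cxcl10. Without STING-MSC 3 the differences were −0.068 and −0.15. On the recovered reads of all joints, Cxcl9 met the nominal threshold in edgeR, with a log2 difference of 1.69, and Cxcl10 in DESeq2, with 1.24, while DESeq2 gave no p for Cxcl9. Without STING-MSC 3, a setting added after seeing the data, neither met it in either tool. After TLR3-MSC, the difference from MSC was 0.21 (95% interval −1.11 to 1.54) for Cxcl9 and 0.32 (95% interval −0.86 to 1.50) for Cxcl10.

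The promoters of this pair are shown because both genes were high in the same joint, with the letters GAAANNGAAA, the core of the interferon-stimulated response element (ISRE), in capitals. They were read from RefSeq on GRCm38.p6, 5′ to 3′ on the minus strand, at chr5:92328080-92328329 for Cxcl9 and chr5:92348890-92349139 for Cxcl10.
Cxcl9: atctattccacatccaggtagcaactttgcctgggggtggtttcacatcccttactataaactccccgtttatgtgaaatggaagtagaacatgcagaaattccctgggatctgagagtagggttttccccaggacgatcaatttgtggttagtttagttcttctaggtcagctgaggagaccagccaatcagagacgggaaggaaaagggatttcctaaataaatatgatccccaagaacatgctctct
Cxcl10: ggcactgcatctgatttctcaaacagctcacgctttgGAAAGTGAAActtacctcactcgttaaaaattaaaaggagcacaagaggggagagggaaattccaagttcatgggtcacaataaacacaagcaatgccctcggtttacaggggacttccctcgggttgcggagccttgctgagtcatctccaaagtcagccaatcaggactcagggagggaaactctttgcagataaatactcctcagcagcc
The Cxcl10 window holds the ISRE core once, at −213 to −204, and the Cxcl9 window holds neither it nor TTCNNNGAA, the letters of a STAT site, on either strand. The ISRE core occurs in 2.98% of the 32851 windows and in the promoters of 2 of 22 members, Cxcl10 and Cxcl14. TTCNNNGAA occurs in 7.02% of windows and in 2 of 22 members, Ccl17 and Cxcl14. No match says only that these letters are not in this window.

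The CCR7 ligand Ccl21a (ENSMUSG00000094686, chr4:42772860-42773994) is made by lymphatic endothelium and guides dendritic cells and T cells to lymph nodes. Its normalized counts were 1331, 977, 2146, 5379 and 1179.8 in control joints, 882, 4479.6, 713, 247 and 2442 after MSC, 690.3, 2162, 2368, 769.5 and 3511 after TLR3-MSC, and 1108, 1749, 624, 991 and 387 after STING-MSC. Control 4 was highest and MSC 4 lowest, and all groups overlapped. After STING-MSC, its log2 difference from control was −1.05 (95% interval −2.47 to 0.37). Without control 4 it was −0.65. The summed level of 4 other lymphatic markers was also highest in control 4, at 8105.5, and lowest in MSC 4, at 1453. The part of lymphatic vessels in the Ccl21a values was not tested.

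The CCR4 ligands Ccl17 and Ccl22 attract T helper and regulatory T cells and were low, with normalized counts from 3.23 to 24.7 and from 11.2 to 57.5 in 19 joints. STING-MSC 3 had 78.2 and 143, the highest of all joints for both. Against MSC, the log2 difference of STING-MSC was 0.82 (95% interval −0.15 to 1.80) for Ccl22, which met the nominal threshold in edgeR and DESeq2, and 0.76 (95% interval −0.58 to 2.09) for Ccl17. Without STING-MSC 3 they were 0.36 and 0.18, and Ccl22 met the nominal threshold in neither tool.

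No ligand known mainly from epithelia met the nominal threshold in any comparison. Cxcl14 (ENSMUSG00000021508, chr13:56436456-56444365), which fibroblasts also make, had normalized counts of 3285, 3152, 3946, 4798 and 3412 in control joints, 3407, 5178, 4242, 3563 and 2510.1 after MSC, 3426, 3609, 2707, 3274 and 6829 after TLR3-MSC, and 3369.9, 2687, 2997, 3293 and 2918 after STING-MSC. STING-MSC joints lay between 2687 and 3370, within the range of the MSC joints, and TLR3-MSC 5 was the highest at 6829. The log2 difference of STING-MSC from control was −0.27 (95% interval −0.71 to 0.16) and from TLR3-MSC −0.30 (95% interval −0.74 to 0.13). Without TLR3-MSC 5 the latter was −0.089.

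Ccl25 (ENSMUSG00000023235, chr8:4375210-4410021), the CCR9 ligand of thymus and gut, had normalized counts of 159.8, 133, 189.8, 125 and 197 in control joints, 169.6, 128, 136, 169 and 119 after MSC, 144, 159, 166, 175 and 125 after TLR3-MSC, and 186, 209, 146, 135 and 231 after STING-MSC. STING-MSC joints included the highest and overlapped every other group. STING-MSC joints differed from MSC joints by 0.31 (standard error 0.17, 95% interval −0.048 to 0.67, unadjusted p = 0.085, FDR = 0.938, exact permutation p = 0.135) on the log2 scale. The CCR10 ligands Ccl27a and Ccl28, known from skin and mucosa, ranged from 105 to 263 and from 9.59 to 36.6, and neither met the nominal threshold in any comparison.

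The membrane-bound ligands Cx3cl1 and Cxcl16 are tethered to cells by a stalk and attract monocytes and T cells. Cx3cl1 ranged from 158 to 426 and Cxcl16 from 170 to 696 over the 20 joints, with STING-MSC 3 highest for Cxcl16. The log2 difference of STING-MSC from control was −0.40 (95% interval −0.91 to 0.12) for Cx3cl1 and −0.10 (95% interval −0.68 to 0.49) for Cxcl16. Without STING-MSC 3 the Cxcl16 value was −0.35. Xcl1, a lymphocyte product that attracts cross-presenting dendritic cells, ranged from 5.24 to 39.98, with a difference of 0.22 (95% interval −0.76 to 1.21).

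Among the injected groups, no member met the nominal threshold. For STING-MSC against MSC, 0 of 30 were called against 4.94% of all genes, and the smallest p was that of Ccl8, with a log2 difference of 0.78 (standard error 0.40, 95% interval −0.051 to 1.62, unadjusted p = 0.0642, FDR = 0.938, exact permutation p = 0.19). This value was 0.50 without STING-MSC 3 and 0.46 without MSC 4, and it met the nominal threshold without MSC 1 (0.93), MSC 2 (1.09) or STING-MSC 5 (0.91). For TLR3-MSC against MSC, 0 of 30 were called against 3.88% of all genes, the smallest p being that of Cxcl5. For STING-MSC against TLR3-MSC, 0 of 30 were called against 2.57%, the smallest being that of Ccl5. The log2 difference was above 0 for 20, 16 and 18 members in these 3 comparisons, with medians of 0.12, 0.023 and 0.17 beside 0.022, 0.029 and 0.021 over all genes. Without STING-MSC 3 the first and last became 15 members with a median of −0.0046 and 14 members with −0.045, and without MSC 5 the first 2 became 13 members each, with medians of −0.023 and −0.064. The intervals were wide for the inflammatory ligands, reaching 2.81 for Ccl3 and 2.05 for Cxcl9 in STING-MSC against MSC, so these data do not exclude differences of up to that size.

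Chemokine receptors that neutrophils and monocytes carry had higher means in the treated joints than in control joints. Of 23 chemokine receptor and decoy receptor genes on a fixed list, 20 were in the table. At the nominal threshold 4 were higher than control after MSC, 4 after TLR3-MSC and 6 after STING-MSC, and 0 were lower, beside the background of 5.64%, 2.68% and 6.54% given above. None had an FDR of at most 0.05. Cxcr2, the neutrophil receptor of Cxcl1, Cxcl2, Cxcl5 and Ppbp, had a mean normalized count of 2673 ± 644 in control joints, 4792 ± 951 after MSC, 4013 ± 648 after TLR3-MSC and 4403 ± 705 after STING-MSC (SD, n = 5). The log2 difference was 0.85 (standard error 0.17, 95% interval 0.50 to 1.20, FDR = 0.0647) for MSC, with 0.60 for TLR3-MSC and 0.74 for STING-MSC. Ccr1, the receptor of Ccl6, Ccl9, Ccl3 and Ccl5 on monocytes and neutrophils, had means of 1555 ± 305, 2489.9 ± 298, 2346 ± 347 and 2478 ± 327 in the same order. Its log2 difference was 0.69 (standard error 0.13, 95% interval 0.41 to 0.97, FDR = 0.0647) for MSC, and all 5 MSC joints lay above all controls. Cxcr1 also met the nominal threshold in the 3 comparisons, with log2 differences of 1.91, 1.51 and 1.60. Against MSC, the STING-MSC joints had 1 receptor called, Ccr2, at 0.37 (95% interval 0.0047 to 0.74). Cxcr4, the receptor of Cxcl12, was among those called for MSC alone, at 0.43 (95% interval 0.043 to 0.81). Ccr10 was called for TLR3-MSC and STING-MSC, and Ccr2 and Ccr9 for STING-MSC, with differences of 0.47 (95% interval 0.11 to 0.84) and 0.70 (95% interval 0.034 to 1.36). Neutrophil markers met the nominal threshold mainly after MSC and STING-MSC, as given above, and their part in the receptor values was not tested.

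STING-MSC 3 was the highest of all 20 joints for 12 of 30 members, where it was the highest for 2.45% of all genes. These were Cxcl9, Cxcl10, Ccl2, Ccl7, Ccl8, Ccl12, Ccl17, Ccl22, Cxcl16, Ccl5, Ccl3 and Ccl4. Relative to the median of the other 4 STING-MSC joints it was 13.7-fold for Cxcl9, 10.1-fold for Cxcl10, 8.72-fold for Ccl12, 8.13-fold for Ccl17 and 5.67-fold for Ccl2. It was not high for Cxcl13, Ccl11, Ccl21a or Cxcl14, which lay at 0.579, 0.559, 0.594 and 0.965 of that median. In this joint the macrophage and monocyte markers summed to 197157 and the T and NK cell markers to 3350.5, places 2 and 3 from the top among the 20 joints. Its neutrophil and B cell sums were each in place 4. MSC 1 was in place 1 for the macrophage and monocyte list, at 200682, and the T and NK cell list, at 3655.2. That joint had Cxcl9 at 376 and Cxcl10 at 125. STING-MSC 3 had 33274155 reads, within the range of the other joints. The part of these cells in its chemokine values was not tested.

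MSC 5 was the lowest of all joints for 10 of 30 members, and the lowest for 15.5% of all genes. It had Ccl3, Ccl12 and Cxcl1 at 0, where 3 reads would be a normalized count of 3.05. With both joints left out, an analysis added after seeing the data, the members that met the nominal threshold numbered 4, 4 and 3 for MSC, TLR3-MSC and STING-MSC against control, and limma called 0 members at an FDR of 0.05. Of all genes, 12.2%, 3.93% and 9.82% met the nominal threshold there.

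**Figure D4:**
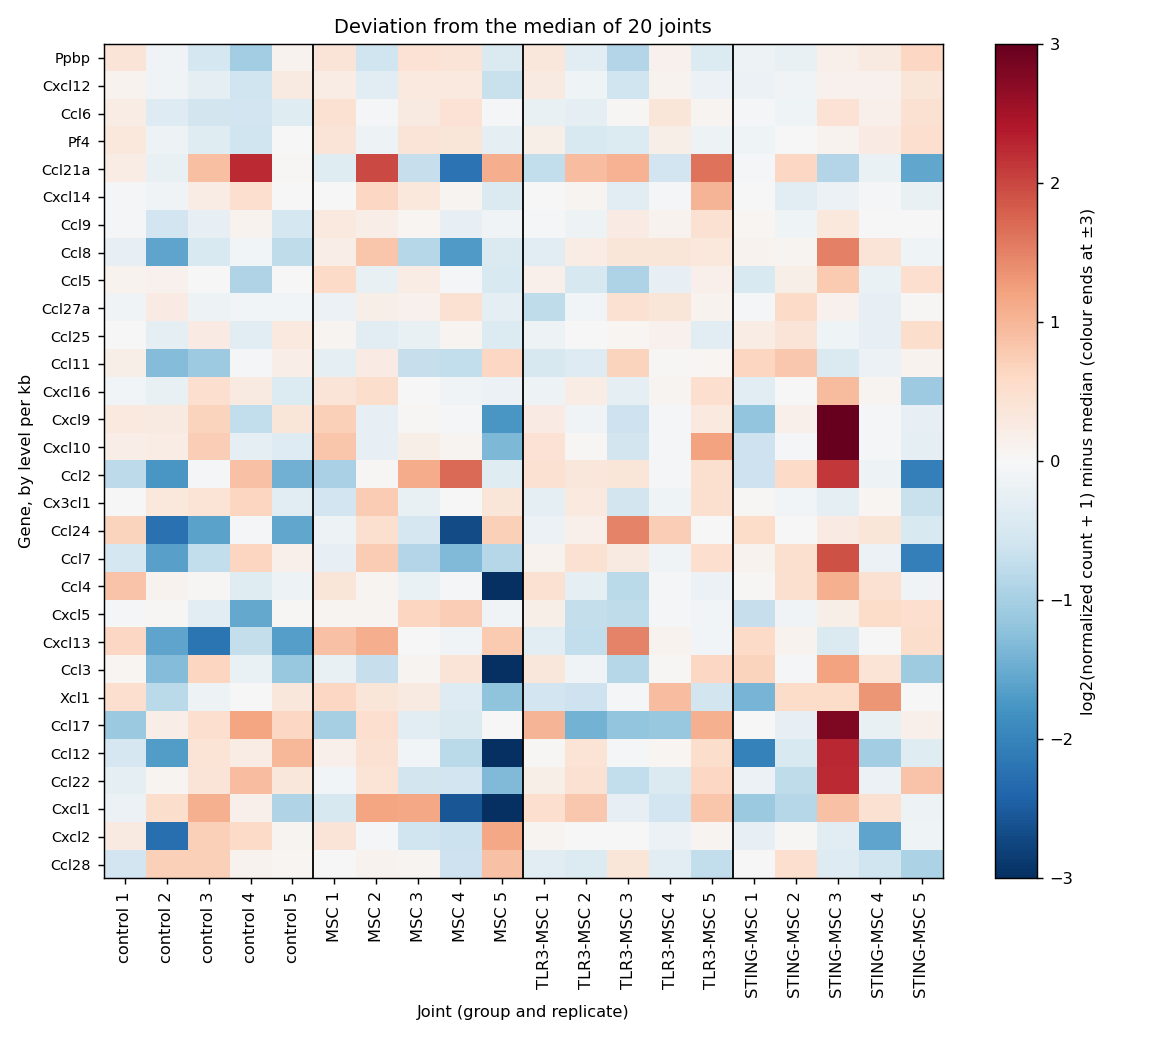
Deviation of each of the 30 members from its median over 20 joints, in log2(normalized count + 1), with genes in rows ordered by level per kb and joints in columns by group. Colours end at ±3. The column of STING-MSC 3 is red for 12 members that have their highest value there, and the column of MSC 5 holds the lowest value of 10 members.

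Neighbouring ligand genes were compared over the 20 joints after group means were subtracted from log2(normalized count + 1), in 5 pairs, with permutation p adjusted over the 5. Cxcl9 and Cxcl10 had r = 0.946 and rho = 0.916, with p = 1e-05, the smallest these permutations can give, and p = 4e-05 (adjusted 5e-05 and 0.00015). Without MSC 5 and STING-MSC 3, the 2 joints farthest from the median of Cxcl9, r was 0.742 (permutation p = 0.00022). Pf4 and Ppbp had r = 0.939 and rho = 0.919 (permutation p = 4e-05 and 6e-05, adjusted 0.0001 and 0.00015), and r = 0.92 without control 4 and STING-MSC 5.

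The other 3 pairs were weaker or moved with single joints. Ccl3 and Ccl4 had r = 0.867 and rho = 0.642 (permutation p = 0.00754 and 0.0176, adjusted 0.0126 and 0.0293), but r = 0.511 (permutation p = 0.0668) without MSC 5 and control 2. Without MSC 5 alone r was 0.471, and without control 2 alone 0.887, so this relation rests on MSC 5. Ccl2 and Ccl7 had r = 0.561 and rho = 0.277 (permutation p = 0.0618 and 0.317, adjusted 0.0772 and 0.317), and r = 0.112 without STING-MSC 3 and 5. Cxcl1 and Cxcl2 had r = −0.275 and rho = −0.269 (permutation p = 0.279 and 0.313, adjusted 0.279 and 0.317), and r = −0.244 without MSC 4 and MSC 5. Joints of the same pair share depth and size factor, and the values are those of tissue, not of cells.

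**Figure D5:**
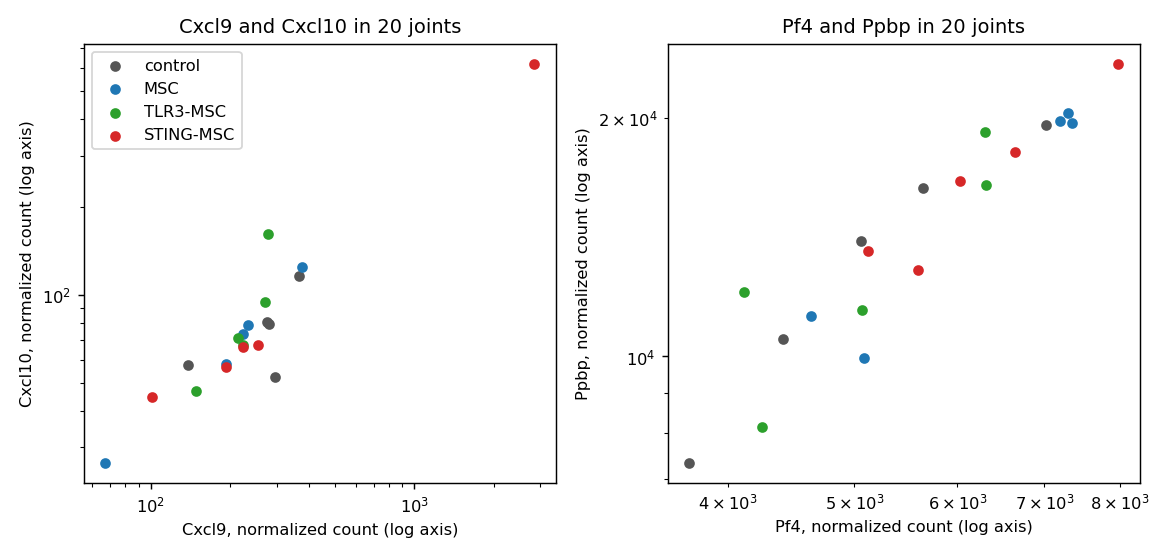
Normalized counts of Cxcl9 against Cxcl10 and of Pf4 against Ppbp on log axes, 1 point per joint and coloured by group. STING-MSC 3, at 2853 and 619, lies apart in the left panel, and in the right panel joints of all groups lie along 1 line from control 4 to STING-MSC 5.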

How the data were processed

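Bulk RNA sequencing of 20 mouse knee joints was analysed, 5 in each of 4 groups taken from the sample labels. The authors filtered reads for adapters, undetermined bases and quality, aligned them with STAR 2.7.3a to GRCm39 and counted them with HTSeq on Ensembl annotation 108 in Partek Flow 10.0. DESeq2 was their test of differential expression. The values deposited are a normalized signal, the counts of each joint divided by a median-ratio size factor by the authors, and a filter on low counts was not given in the sources used here. The library kit and the counting were not described by strand.

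Within a tolerance of 0.05 read, 98.9% to 99.9% of the values of a joint came out as whole reads after division by the smallest step of that joint, and 100% of those under 1000. Depth is the sum of recovered reads, and floors of 3 reads cover counting error only. Joints of a group differed by more than sampling noise (the smallest chi-square per gene was 24.5) and were kept as separate samples, and p-values measure the spread between these mice.

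The main test was limma 3.58.1 (R 4.3.3) with trend on log2(normalized count + 1) over all 20 joints and 14793 genes without a block, in place of a count test because the values are normalized, with FDR by the Benjamini-Hochberg method over all genes. Log2 differences are on this scale, which understates changes of low genes. A minimum mean of 5 removed 0 genes. Other settings tried were a pseudocount of 0.5 or of 5, a minimum of 20 or none, quantile normalization, edgeR 4.0.16 (quasi-likelihood) and DESeq2 1.42.0 on recovered reads, only the 2 groups compared, a block for replicate numbers, and the omission of every joint in turn. At an FDR of at most 0.05 over all genes, edgeR called 15, 0 and 0 genes for MSC, TLR3-MSC and STING-MSC against control and DESeq2 108, 3 and 85. Same-numbered joints are different mice. Exact two-sided permutation tests compared 5 joints with 5, and correlations used 100000 permutations within groups. The scripts were tested on simulated data.

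The members, lists and tests were chosen with earlier results of these data known. Values in every joint are given for members with an FDR of at most 0.05, the 3 with the smallest p in each comparison, the 5 highest per kb, and Cxcl1, Cxcl2, Cxcl5, Cxcl9, Cxcl10, Ccl2, Ccl5 and Cxcl12. Gene positions are as deposited. Promoters came from RefSeq on GRCm38.p6 and matched 22 of 30 members by symbol. Transcript lengths are those of Ensembl canonical transcripts in the GENCODE annotation of GRCm39, whose gene ends can differ from those deposited, as for Pf4. The pair of Ccl19 and Ccl21a was not analysed here.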

Additional observations from a re-analysis of the deposited data

Results flagged for a closer look

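Single joints that lay far from the other 4 of their group were found for 13 of 120 combinations of member and group, where chance alone gives about 6. The gap to the nearest joint, divided by the range of the group, exceeded 0.71 in each.

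The highest values that stood apart were those of STING-MSC 3 for the interferon-induced Cxcl9, at 2853 against 101 to 254 in the other 4 joints, Cxcl10, at 619 against 44.6 to 67.3, and Ccl17, at 78.2 against 8.56 to 11.5. Control 1 was high for Ccl6, at 7101 against 4056 to 4689, and control 2 for Ccl27a, at 210 against 158 to 167.

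The lowest values that stood apart included 2 inflammatory ligands in MSC 5, Ccl3 at 0 against 15.2 to 33.0 and Ccl4 at 1.02 against 32.8 to 49.6. Control 4 was low for Ccl5, at 129 against 239 to 262, and for Cxcl5, at 26.5 against 61.6 to 80.9. Cxcl2 was low in control 2, at 1.21 against 10.2 to 16.3, and in STING-MSC 4, at 2.5 against 7.3 to 9.79. In the TLR3-MSC group, Ccl2 was low in joint 4, at 52.8 against 70.3 to 76.9, and Ccl8 in joint 1, at 177 against 261 to 288. The cause of these values was not tested.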

How the results depend on the processing

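No alternative but the omission of control 1 gave a member an FDR of at most 0.05, and there it was Cxcl13 for MSC against control (0 to 1 when each joint was left out). DESeq2 gave an FDR for 18 of 30 members in MSC against control and for 29 in the other comparisons. Pseudocounts of 0.5 and 5 and other minimums left every count of members at the nominal threshold as reported. For STING-MSC against control the 3 members became 5 under quantile normalization (with Ccl11 and Ccl24) and 5 with only the 2 groups compared (with Ccl24 and Cxcl14), but 2 in edgeR and 2 in DESeq2 (both without Cxcl13). Of all genes, 12%, 15.5%, 13.3% and 15.2% met it for STING-MSC against control in these settings, in the same order. In edgeR the 3 also became 2 for MSC (without Cxcl5) and 2 for TLR3-MSC (without Ccl24), where 8.85% and 3.81% of all genes met it. For STING-MSC against MSC the 0 became 1 under quantile normalization (Ccl8), 2 in edgeR (Ccl22 and Cxcl9), 2 in DESeq2 (Ccl22 and Cxcl10) and 1 without both MSC 5 and STING-MSC 3 (Cxcl16), which was chosen after seeing the data. For TLR3-MSC against MSC the 0 became 1 with only the 2 groups compared (Cxcl5), and for STING-MSC against TLR3-MSC 1 in edgeR (Cxcl9) and 1 without both joints (Ccl12). With STING-MSC 3 left out of the recovered reads, also chosen after seeing the data, edgeR gave 1 for STING-MSC against control (Ccl6) and 0 against MSC, DESeq2 gave 2 and 1 (Ccl25 in the latter), and both gave 1 for any difference (Ccl6). Of all genes, 4.33%, 4.85%, 6.28% and 8.02% met the threshold for STING-MSC against MSC, in the order of settings given. For TLR3-MSC against MSC 2.32% did, and for STING-MSC against TLR3-MSC 4.09% and 2.58%. Without STING-MSC 3, edgeR called 9.68% against control and 5.12% against MSC, and DESeq2 11.9% and 6.65%. For any difference these shares were 5.95% and 8.27%. The cause of the changed counts was not tested.

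With each joint left out in turn, the counts ranged from 2 to 5 for MSC against control (5 without control 1 or MSC 5), from 1 to 5 for TLR3-MSC (5 without control 1 or TLR3-MSC 1, 1 without control 2, 3 or 5 or TLR3-MSC 3) and from 2 to 6 for STING-MSC (6 without control 1, 5 without control 4 or MSC 4). They ranged from 0 to 3 for STING-MSC against MSC (3 without MSC 2, 2 without MSC 1 or STING-MSC 5, 1 without MSC 4 or STING-MSC 2, 3 or 4), from 0 to 2 for TLR3-MSC against MSC (2 without MSC 2, 1 without MSC 3 or control 4), from 0 to 1 for STING-MSC against TLR3-MSC (1 without STING-MSC 1) and from 0 to 4 for any difference (0 without control 3, 4 without MSC 4). Shares of all genes ranged from 5.76% to 16.7%, 2.03% to 5.48% and 5.87% to 15.7% in the comparisons with control. Between injected groups they ranged from 3.91% to 6.66%, 2.45% to 9.98% and 0.973% to 5.12%, and for any difference from 4.2% to 11.2%. For STING-MSC against MSC, Cxcl9 ranged from −0.068 to 1.13 and Cxcl10 from −0.15 to 0.79, and both turned below 0 without STING-MSC 3. The r of Ccl2 and Ccl7 ranged from 0.35 to 0.71 and that of Ccl3 and Ccl4 from 0.47, without MSC 5, to 0.90.

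With the replicate block, 2, 3 and 3 members met the nominal threshold against control for MSC, TLR3-MSC and STING-MSC, and 0 in the other comparisons. Of all genes, 7.9%, 3.2% and 10.8% met it against control. The replicate numbers only name joints, since same-numbered joints are different mice and their mean correlation lay between −0.14 and 0.11 over the 6 comparisons. Among alternative values for single members, 706 kept their direction and side of the threshold, 15 passed it, 28 no longer did and 2 changed direction. Depth limits the lowest members, Cxcl1, Cxcl2, Ccl12 and Ccl17, which had few reads in single joints.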

Other observations

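Other gene groups in the same joints also differed from control at the nominal threshold. After STING-MSC, 3 of 5 endothelial markers, 2 of 8 fibroblast and stromal markers and 3 of 8 immediate-early genes, which respond within minutes to handling, were lower than in control joints, where 5.69% of all genes were. Compared with MSC, 5 of 8 immediate-early genes were lower after STING-MSC and 2 of 8 after TLR3-MSC, where 2.17% and 1.99% of all genes were. Their summed normalized count was 6882 to 9855 after STING-MSC, 7248 to 13530 after TLR3-MSC, 8990.4 to 20028 after MSC and 9141 to 18702 in control joints. Of the T and NK cell markers, the cells that Cxcl9 and Cxcl10 attract, 0 of 9 were past this threshold in any comparison with control.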
